A study of Homo sapiens with 4 samples.

Results

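Peaks of PPARα and PML/RARA were described at 9 genes: CYBA, CYBB, NCF1, NCF4 and RAC2, which encode parts of the phagocyte NADPH oxidase, and ITGAL, ITGAM, ITGAX and ITGB2, which encode leukocyte integrin chains. The 9 genes were listed by name and stand beside 19974 protein-coding genes on chromosomes 1 to 22 and X. Every peak that shared at least 1 base with a gene body or the 20 kb on either side was counted, and that stretch is called the window of the gene. The material was NB4, an established cell line from human acute promyelocytic leukemia in which the PML and RARA genes are fused. It was profiled by CUT&Tag, in which an antibody directs a transposase to chromatin and the released fragments are sequenced. The 4 libraries were 1 with an antibody to PPARα, 1 with an antibody to PML/RARA, and for each of these antibodies 1 IgG library. The labels name no drug, dose or time for any of the 4, and the sources used here do not say which part of the fusion the PML/RARA antibody sees.

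The data used are 2 peak lists, 1 per antibody, without replicates. There were 9829 PPARα peaks, whose median fold enrichment was 6.26 on the chromosomes analysed, and 46021 PML/RARA peaks, whose median was 7.41. Fold enrichment is a linear ratio over background, and both it and the −log10 q-value come from the authors' lists and describe peaks within a list only. Sequencing depth is unknown, and IgG signal was not analysed here, so the absence of a peak means only that none was called. No test over samples was possible, and the counts for the 9 genes are a description beside the same counts over all genes. Expression was not measured by these lists.

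The phagocyte NADPH oxidase makes superoxide for microbial killing. CYBB encodes its catalytic membrane chain and CYBA the partner chain that stabilises it. NCF1 and NCF4 encode cytosolic subunits and RAC2 the small GTPase that joins the complex on activation. The leukocyte integrins bind ligands on other cells and on opsonised microbes, and each is an alpha chain, such as those from ITGAL, ITGAM and ITGAX, paired with the shared beta chain from ITGB2. Several of these genes are known to be low in promyelocytes and to increase as granulocytes mature, and ITGAM is the usual surface marker of that step when promyelocytic leukemia cells are given retinoic acid.

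PPARα peaks lay in the windows of 4 of the 9 genes, CYBA, ITGAL, ITGAX and ITGB2, where 53.5% of all protein-coding genes had one. PML/RARA peaks lay in 8 of the 9 windows, where the share among all genes was 78.9%. NCF1 had no peak of either list. The 9 windows held 8 PPARα peaks and 65 different PML/RARA peaks, of which 2 were shared by the adjoining windows of ITGAM and ITGAX. A window held a median of 0 PPARα and 7 PML/RARA peaks for the 9 genes, against 1 and 2 over all genes. Long genes have long windows, and per 10 kb of window the median for PML/RARA was 0.954 over the 9 genes and 0.292 over all genes. CYBB, NCF4, RAC2 and ITGAM carried 4 to 7 PML/RARA peaks each and no PPARα peak, beside 26.0% of all genes with PML/RARA peaks alone. Of the 7697 genes with at least 4 PML/RARA peaks in the window, 23.5% likewise had none for PPARα.

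**Figure D1:**
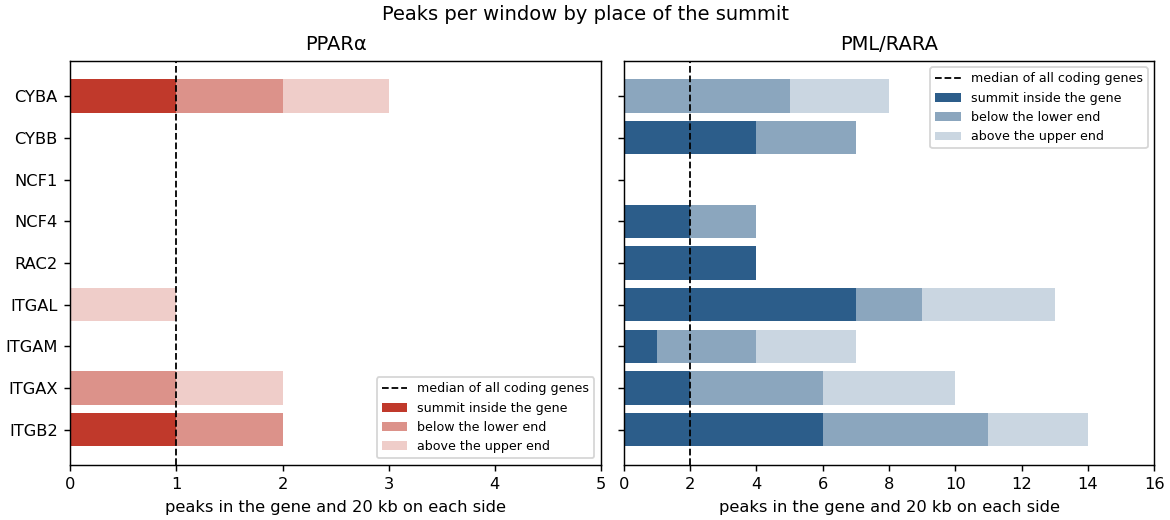
Number of PPARα (left) and PML/RARA (right) peaks in each gene's window, split by whether the summit lay inside the gene, below its lower annotated end or above its upper end; the dashed line is the median over all protein-coding genes. PML/RARA counts run from 0 at NCF1 to 14 at ITGB2, and PPARα counts from 0 at 5 genes to 3 at CYBA.

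Start peaks were counted within 1 kb of the annotated start, or of either end for the 5 genes whose strand is not in the promoter table used. By that rule PML/RARA marked 7 of the 9 genes, beside 57.7% of all genes, and PPARα marked 2, CYBA and ITGAX, beside 32.7% of all genes. Both PPARα start peaks lay at genes that also had a PML/RARA start peak. Over all genes, 6469 of the 6537 with a PPARα start peak also had one for PML/RARA. Conversely, 2 of the 7 genes marked by PML/RARA had a PPARα start peak. Among all genes with a PML/RARA start peak, 56.1% had one for PPARα as well. The start peaks of the 9 genes had folds near or below those of other marked genes. The median PML/RARA fold was 11.3 over the 7 genes and 14.4 over all 11522 marked genes. The PPARα folds were 5.51 at CYBA and 5.85 at ITGAX, against a median of 7.07 over all 6537 marked genes. With the PML/RARA list shortened to as many peaks as the PPARα list, 3 of the 9 genes kept a start peak, beside 30.4% of all genes.

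**Figure D2:**
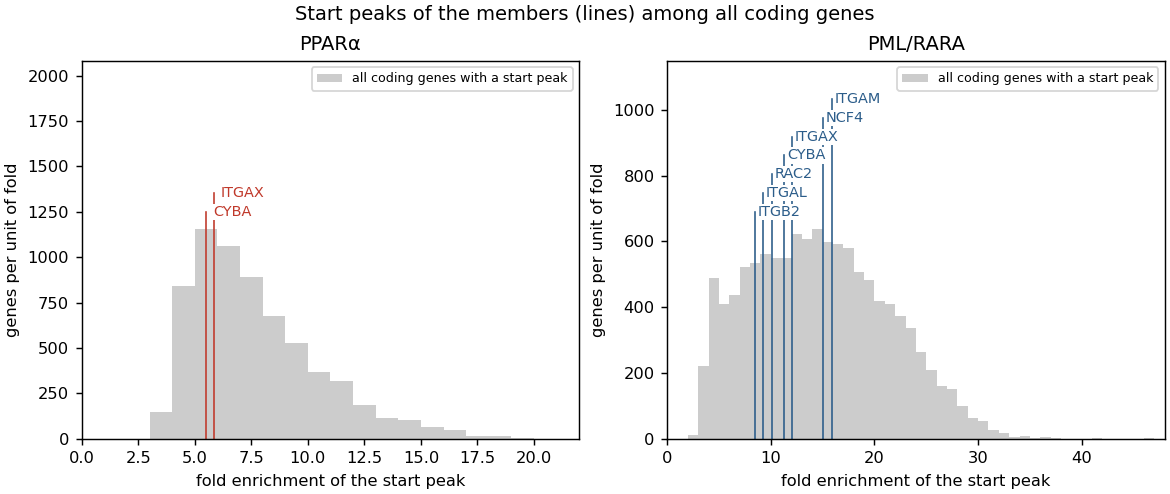
Authors' fold enrichment of the start peak for PPARα (left) and PML/RARA (right): grey bars count all protein-coding genes with such a peak per unit of fold, and each line marks one of the 9 genes. The PML/RARA lines run from 8.47 at ITGB2 to 15.9 at ITGAM, inside the bulk of the grey distribution, and both PPARα lines lie below the median of 7.07.

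RefSeq promoter sequence (GRCh38.p14, the assembly behind hg38) was at hand for 4 of the 9 genes. The 250 bases before each start are shown 5′ to 3′ on the gene's strand because they contrast a promoter under peaks of both lists (CYBA), one partly under a PML/RARA peak (ITGAM) and a pair under no peak (CYBB and NCF1). Capitals mark GAGGAA, the core letters bound by the myeloid factor PU.1, and CCGCCC, a GC box of the SP and KLF factors, each on either strand, so that TTCCTC and GGGCGG are capitals too.
CYBA, chr16:88651054-88651303, minus strand: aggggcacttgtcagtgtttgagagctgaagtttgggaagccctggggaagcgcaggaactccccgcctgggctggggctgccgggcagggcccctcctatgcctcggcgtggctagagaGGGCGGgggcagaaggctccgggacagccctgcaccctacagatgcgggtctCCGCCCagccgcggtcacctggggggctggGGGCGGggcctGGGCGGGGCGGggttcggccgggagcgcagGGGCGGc
ITGAM, chr16:31259725-31259974, plus strand: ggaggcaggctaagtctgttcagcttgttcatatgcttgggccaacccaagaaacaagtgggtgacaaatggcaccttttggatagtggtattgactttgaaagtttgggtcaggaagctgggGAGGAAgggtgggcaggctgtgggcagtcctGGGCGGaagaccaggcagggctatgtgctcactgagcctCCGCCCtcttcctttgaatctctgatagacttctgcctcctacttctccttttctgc
CYBB, chrX:37779809-37780058, plus strand: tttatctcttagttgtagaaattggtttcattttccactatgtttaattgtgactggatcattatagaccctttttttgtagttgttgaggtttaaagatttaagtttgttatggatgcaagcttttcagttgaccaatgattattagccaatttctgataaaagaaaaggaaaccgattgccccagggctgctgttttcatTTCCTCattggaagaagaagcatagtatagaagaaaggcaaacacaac
NCF1, chr7:74773761-74774010, plus strand: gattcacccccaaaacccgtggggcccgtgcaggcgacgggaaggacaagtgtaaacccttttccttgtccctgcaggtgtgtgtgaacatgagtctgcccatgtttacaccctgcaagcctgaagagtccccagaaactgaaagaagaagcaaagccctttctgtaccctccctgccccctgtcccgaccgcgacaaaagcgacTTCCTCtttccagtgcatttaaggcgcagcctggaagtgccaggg

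The CYBA stretch was 73.6% G and C, ITGAM 53.2%, NCF1 56.4% and CYBB 34.0%, where the median over 35116 RefSeq promoters was 58.0%. CYBA held 6 GC boxes, a pair of them overlapping, and no GAGGAA. ITGAM held 2 GC boxes and 1 GAGGAA, which began 127 bases before the start. CYBB and NCF1 each held 1 GAGGAA on the opposite strand, beginning 48 and 45 bases before the start, and no GC box. Among all promoters of this length 42.6% held a GC box and 23.6% held GAGGAA. The shorter ETS core GGAA, which lies within GAGGAA, was in all 4 stretches and in 92.7% of promoters. AGGTCA, the letters that nuclear receptors bind as pairs, was in none of the 4 and in 12.1% of all promoters, so its direct repeats spaced by 1, 2 or 5 bases were absent as well. The same was true of TTGCNNAA for C/EBP factors (9.05% of all promoters), TGTGGT for RUNX factors (10.98%) and TGANTCA for AP-1 (6.57%). These are letter matches in a short window and say nothing of whether a factor was bound.

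CYBA had the most PPARα peaks of the 9 genes. Its start peak, on chromosome 16 from 88650558 to 88651537, reached a fold of 5.51 at a −log10 q of 4.82, rank 6211 in the PPARα list. The PML/RARA peak there spanned 88649921 to 88651764, and its fold was 11.3 at a −log10 q of 241, rank 763 of 46021. Both covered the whole promoter stretch shown above. Their summits did not coincide, since the PPARα summit lay 134 bases inside the gene and the PML/RARA summit 544 bases before it, 678 bases apart. At 1844 bases the PML/RARA peak was the widest of the 65, whose median width was 246 bases.

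The other PPARα peaks in the CYBA window lay at neighbouring genes. The one from 88663256 to 88663739, 12361 bases above CYBA by its summit, sat at the starts of MVD, an enzyme gene of the mevalonate pathway, and of the long noncoding SNAI3-AS1. It had a fold of 6.27 and overlapped the strongest PML/RARA peak of the window, with a fold of 27.2 and rank 267. The PPARα peak 9271 bases below CYBA (fold 4.72) sat at the start of the noncoding LOC124903755, under a PML/RARA peak of fold 8.43. The remaining 5 PML/RARA peaks of the window had folds from 2.99 to 7.44 and no PPARα overlap. MVD itself holds the PML/RARA peak of fold 7.44, 4759 bases from the CYBA end.

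CYBB had PML/RARA peaks inside the gene but none at its start. The 7 peaks of its window had folds from 4.53 to 13.8. The strongest lay inside the gene, on chromosome X from 37796879 to 37797222, with its summit 17025 bases past the start, a −log10 q of 24.3 and rank 14495. The peaks nearest to the start were 3254 bases before it (fold 4.998) and 1930 bases after it (fold 4.53). The CYBB promoter shown above was therefore outside every called peak, and the nearest PPARα peak lay 26.3 kb below the gene, outside the window.

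NCF1 stood in a stretch without calls. The nearest PML/RARA peaks were 81.4 kb below the gene and 101 kb above it, and the nearest PPARα peaks 599 kb below and 284 kb above. Over all protein-coding genes, 20.4% had no peak of either list in the window. NCF1 has near-identical pseudogene copies on the same chromosome, NCF1B and NCF1C. The NCF1C window was also without peaks, and the NCF1B window held 2 PML/RARA peaks, the nearest 11.3 kb above the copy with a fold of 10.7. The sources used here do not say how reads that match several copies were placed, so the missing calls at NCF1 are uncertain.

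NCF4 and RAC2, both on chromosome 22, had PML/RARA peaks at one end and none from PPARα. The NCF4 end peak ran from 36860871 to 36861256, with its summit 31 bases outside the lower annotated end, where the gene is known to start; its fold was 15.0 and its −log10 q 63.4. A second peak of fold 9.75 lay 1514 bases inside, and the other 2 had folds of 4.35 and 4.43. The gene NCF4-AS1 spans 3 of these 4 sites, all but the one of fold 4.43. At RAC2 all 4 summits were inside the gene. The peak at the upper end, where RAC2 is known to start, ran from 37244012 to 37244466 with its summit 49 bases inside and a fold of 10.1. A stronger one lay 1656 bases from that end, from 37242432 to 37242932, of fold 16.8 and −log10 q 177, rank 1455. One more, of fold 12.9, lay 4957 bases from the lower end. The nearest PPARα peak was 84.4 kb from NCF4 and 25.4 kb from RAC2.

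**Figure D3:**
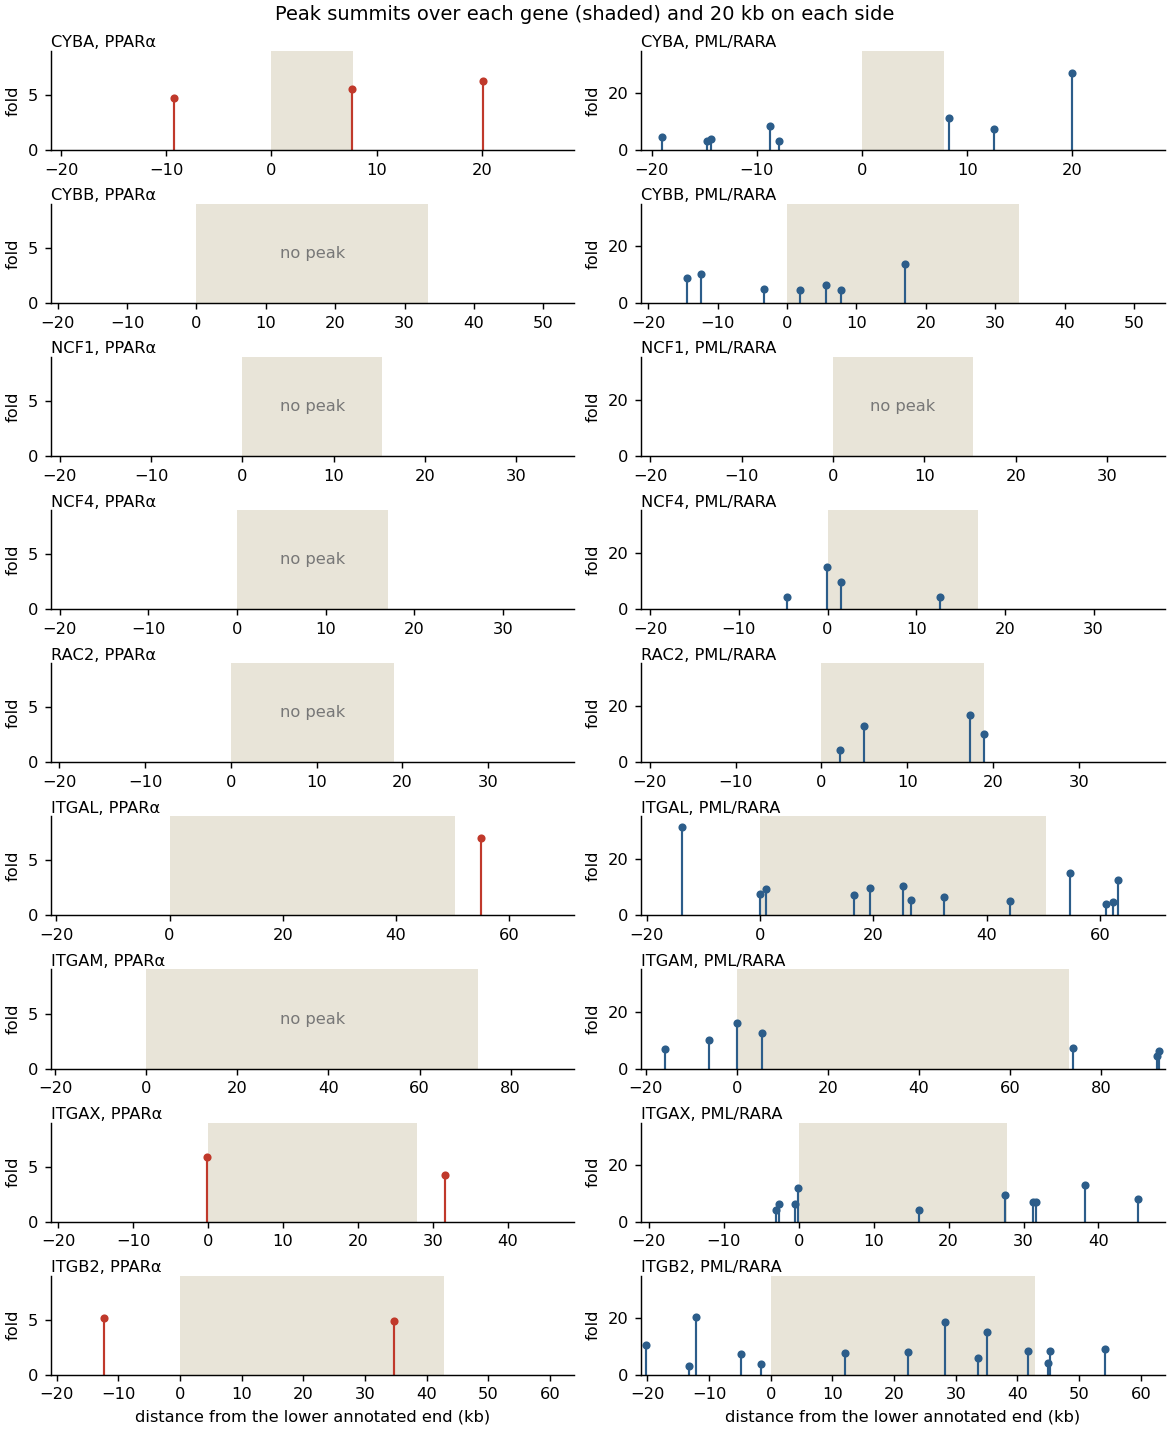
Summit positions of PPARα (left) and PML/RARA (right) peaks, in kb from the lower annotated end of each gene (shaded), with the authors' fold enrichment as height; the 2 columns have different fold axes that are not on a common scale. PML/RARA summits stand at the end peaks of NCF4, RAC2, ITGAL, ITGAM and ITGAX and at the start of CYBA. The ITGB2 end peak has its summit 1094 bases inside the upper end. CYBB has PML/RARA summits away from its start, and NCF1 has none.

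ITGAM, the alpha chain gene of the complement receptor integrin, had 7 PML/RARA peaks and no PPARα peak in a 113 kb window. Its start peak, on chromosome 16 from 31259842 to 31260108, had the highest fold among the start peaks of the 9 genes, 15.9, with a −log10 q of 30.7. Its summit lay 74 bases before the start, and the peak covered 133 of the 250 promoter bases shown. A peak of fold 12.4 followed 5492 bases into the gene and one of fold 10.03 lay 6135 bases before it. The remaining 4 had folds from 4.26 to 7.13. From the 5492-base site to the upper end, the gene body held no further summit.

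ITGAX, the next gene on the chromosome, had peaks of both lists at its lower end, where the gene is known to start. The PPARα peak ran from 31354611 to 31355112 (fold 5.85, −log10 q 5.10), and its summit lay 178 bases outside the gene. It overlapped a pair of PML/RARA peaks. The stronger, from 31354966 to 31355204, had a fold of 12.0, and its summit was 108 bases from that of PPARα; the weaker had a fold of 6.37. This PPARα peak lies 21.7 kb above ITGAM, just outside the ITGAM window. A PML/RARA peak of fold 9.34 marked the upper end of ITGAX. Above that end, a PPARα peak of fold 4.22, the lowest of the 8, overlapped a PML/RARA peak of fold 7.04 with summits 14 bases apart, the closest pair in the 9 windows. It was the PPARα peak at neither an end of the 9 genes nor an end of another annotated gene. The end of ITGAD, a further alpha chain gene, held a PML/RARA peak of fold 12.8 without PPARα.

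ITGAL, the alpha chain gene of the main lymphocyte integrin, had 13 PML/RARA peaks and 1 PPARα peak in its window. The strongest PML/RARA peak of all 9 windows lay 13868 bases below the gene by its summit, on chromosome 16 from 30458582 to 30459331. Its fold was 31.1 and its −log10 q was 617, rank 41 in the PML/RARA list. No annotated gene overlapped it, the next one below being SEPHS2 at 12.7 kb, and the nearest PPARα peak was 28.0 kb away. Of the 100 highest-ranked PML/RARA peaks 85 overlapped PPARα, so this one was among the other 15. Peaks of fold 7.50 and 9.24 marked the lower end of ITGAL, where the gene is known to start, at 115 bases outside and 1105 bases inside. Another 6 PML/RARA summits inside the gene had folds from 4.93 to 10.5. The PPARα peak of the window, from 30527055 to 30527943, belonged by position to the start of ZNF768, a zinc finger gene 4501 bases above ITGAL by summit. It had the highest fold of the 8, 7.07, over a PML/RARA peak of fold 14.8.

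ITGB2, which encodes the beta chain shared by the 3 alpha chains, had the most PML/RARA peaks, 14 in its window on chromosome 21, which was more than in the windows of 98.0% of protein-coding genes. Corrected for window length the figure was 1.69 per 10 kb, above 95.2% of genes. A peak from 44927457 to 44927887, 1094 bases inside the upper end by its summit and within 1 kb of that end by its edge, had a fold of 8.47. This is the end where ITGB2 is known to start. Deeper in the gene were peaks of fold 18.7, with its summit 14529 bases from the upper end and no PPARα overlap, and of fold 14.9, from 44920051 to 44921104. The site of fold 14.9 overlapped a PPARα peak of fold 4.90 and −log10 q 3.72, from 44920340 to 44921249, with summits 368 bases apart, and sat at the lower end of the antisense gene ITGB2-AS1. For a gene antisense to ITGB2 the lower end is the start, so by position the site lies at that start and inside ITGB2. Which of these genes it acts on was not tested. The other PPARα peak of the window, with a fold of 5.18, lay 12355 bases below ITGB2 at the start of PTTG1IP, under a PML/RARA peak of fold 20.5.

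The 8 PPARα peaks stood mostly below the median of their own list in fold. Their folds ran from 4.22 to 7.07 with a median of 5.35, and 6 of the 8 were below the list median. Their ranks by q were 3345 to 9025 of 9829. By position 2 lay at the ends of the 9 genes, 5 at a start or end of another annotated gene and 1 at neither. The 5 include the site inside ITGB2 at the end of ITGB2-AS1. These places were not counted over the whole PPARα list, so whether the split is usual is unknown. All 8 overlapped a PML/RARA peak, where 90.1% of the whole PPARα list did; with 8 peaks the exact Clopper-Pearson 95% interval is 63.1 to 100%, for counting error only. Summits lay within 200 bases of a PML/RARA summit for 3 of the 8 and for 55.6% of the whole list.

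Of the 65 PML/RARA peaks, 9 overlapped PPARα (13.8%, exact Clopper-Pearson 95% interval 6.53 to 24.7%), beside 21.4% of the whole PML/RARA list. The interval is for counting error only and treats peaks as independent, although many share a window. The median fold was 12.0 for these 9 and 7.32 for the other 56, and over the whole list 14.6 with and 6.43 without PPARα. The ranges overlapped widely, from 6.37 to 27.2 with PPARα and from 2.95 to 31.1 without. The 9 peaks were also wider, with a median width of 836 bases against 231 for the other 56. Over the whole list these widths were 515 and 206 bases. Overlap needed only 1 shared base, and the bearing of width on the fold difference was not tested. Among peaks of fold 10 or more, 6 of 21 in the 9 windows overlapped PPARα (28.6%), against 7202 of 15940 in the whole list (45.2%). By position 10 of the 65 lay at the starts or ends of the 9 genes, 15 at those of other annotated genes and 40 at neither. The same places were not counted over the whole PML/RARA list, so whether this split is usual is unknown.

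**Figure D4:**
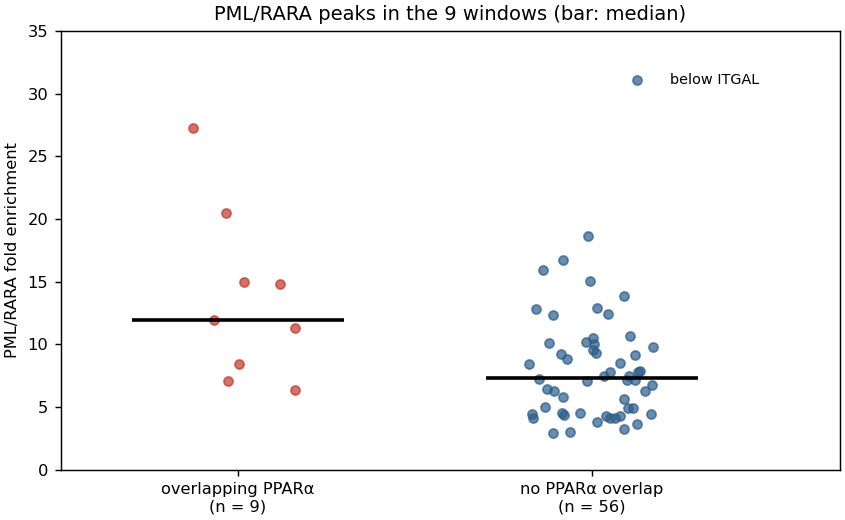
Authors' fold enrichment of the 65 PML/RARA peaks in the 9 windows, for the 9 that overlap a PPARα peak (left) and the 56 that do not (right); points are peaks, bars are medians (12.0 and 7.32). The highest point, at 31.1 below ITGAL, has no PPARα overlap.

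Counts were also summed by role. The 5 oxidase windows held 3 PPARα and 23 PML/RARA peaks, and all 3 PPARα peaks were in the CYBA window. The 4 integrin windows held 5 PPARα and 42 PML/RARA peaks. Among the cytosolic oxidase genes NCF1, NCF4 and RAC2 there were 8 PML/RARA peaks and no PPARα peak. With overlapping windows joined, the oxidase windows covered 292 kb and the integrin windows 336 kb. That gave 0.103 PPARα and 0.786 PML/RARA peaks per 10 kb for the oxidase genes, and 0.149 and 1.25 for the integrin genes. These densities are pooled over joined windows and are not comparable with medians over single windows. Such medians were 0 for PPARα and 0.954 for PML/RARA over the 9 genes. Over all protein-coding genes they were 0.0529 and 0.292 per 10 kb. The difference between the roles was not tested.

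Related genes were counted by the same start rule, by which PPARα marked 32.7% of all genes and PML/RARA 57.7%. Of 10 other NADPH oxidase genes, PPARα marked 1 and PML/RARA 3. RAC1, the widely expressed relative of RAC2, had both (PPARα fold 5.77, PML/RARA fold 18.04). CYBC1, whose product is needed to make the CYBB and CYBA heterodimer, had a PML/RARA start peak of fold 14.1 alone, as did NOXA1 (20.01), an activator of the epithelial oxidase. Of 13 other integrin genes, listed here as leukocyte integrins without a check of where they are expressed, PPARα marked 1 and PML/RARA 6. ITGA4, an alpha chain of the integrins that bind VCAM1, had the highest PPARα fold among the integrin genes marked, 11.3, beside a PML/RARA fold of 12.5. ITGAV (14.8) and ITGB1 (13.3) had PML/RARA start peaks only. Of 9 integrin genes mainly of other tissues, PPARα marked 1 (ITGA7, 8.63) and PML/RARA 4, at ITGA7 (11.1), ITGA11 (11.3), ITGB4 (4.87) and ITGB8 (5.23).

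Genes linked to the action of these proteins were counted in the same way, beside start peaks at 32.7% of all genes for PPARα and 57.7% for PML/RARA. Of 13 genes listed for integrin activation and adhesion partners, PPARα marked 6 and PML/RARA 10. Both lay at FERMT3, which encodes kindlin-3 of blood cells (PPARα fold 4.67, PML/RARA fold 11.2), TLN1, which encodes talin (3.89 and 18.6), RASGRP2, an activator of Rap GTPases (4.73 and 8.78), APBB1IP, which links Rap to talin (10.2 and 19.7), and the ligand genes ICAM1 (6.95 and 16.2) and ICAM3 (9.95 and 14.3). Of 11 genes that signal to the oxidase, PPARα marked 4 and PML/RARA 9. The 4 were the kinase genes PRKCD (PPARα fold 5.56, PML/RARA fold 8.54) and SYK (6.06 and 12.7), and VAV1 (6.09 and 12.6) and DOCK2 (4.72 and 12.6), which encode Rac exchange factors. PRKCB (18.2) and FGR (17.6) had PML/RARA start peaks alone. By window, the median number of PML/RARA peaks was 3.5 for the other oxidase genes, 4 for the other leukocyte integrins and 5 for integrins of other tissues. It was 6 for integrin activation and adhesion partners and 9 for oxidase signalling, against 7 for the 9 genes and 2 over all genes. The PPARα median was 1 for the activation and signalling lists and over all genes, and 0 for the rest. The difference between lists was not tested.

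**Figure D5:**
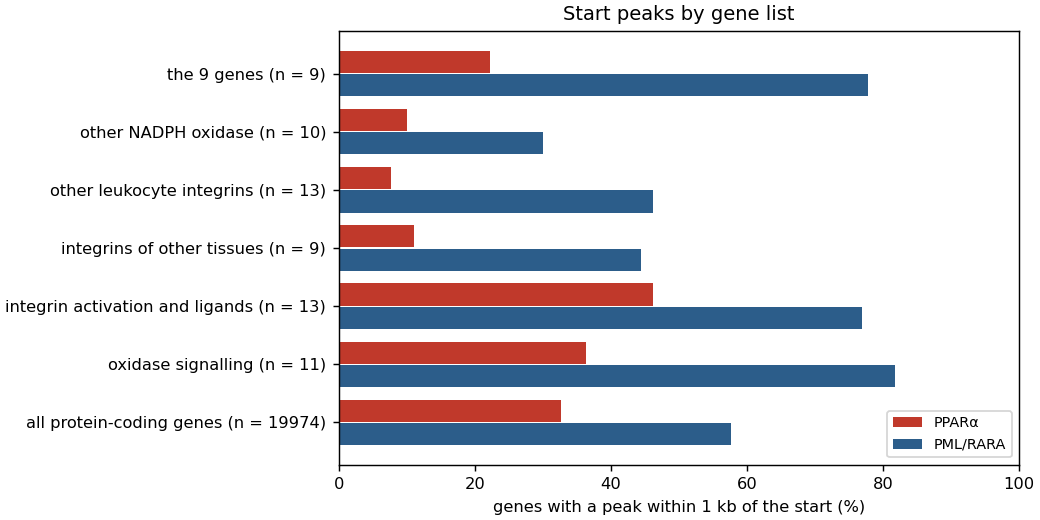
Percent of genes in each list with a PPARα or PML/RARA peak within 1 kb of the start (either end where the strand is not in the table used). For the 9 genes the bars stand at 22.2 and 77.8%, and for all protein-coding genes at 32.7 and 57.7%.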

How the data were processed

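CUT&Tag peak lists of the PPARα and PML/RARA libraries of NB4 cells were used, 1 per antibody. They have the narrowPeak layout, in which the authors deposited each peak's position, summit offset, score, fold enrichment (a linear ratio) and p- and q-values on the −log10 scale. Per the submitters' processing notes the build is hg38, and Bowtie2 2.2.9, SAMtools, MACS 1.4.2 and bedtools are named. The narrowPeak layout is that of later MACS releases, so which version computed the fold and q-values is not settled; roles, settings and use of the IgG libraries are not given in the sources used here. Depth is unknown, so no interval for a single peak was given.

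Peaks on chromosomes 1 to 22 and X were kept, so that 10 PPARα peaks and 33 of PML/RARA were left out. Gene spans came from RefSeq (GRCh38.p14). Starts were taken from the RefSeq promoter table for the 15813 protein-coding genes it gives a strand, 4 of the 9 members among them, and both annotated ends were used for the other 4161; exons were not analysed here. One peak may count for several adjacent genes. The members, lists and rules were chosen with earlier results of these data known. The genes named were the 9 members, genes near a peak in their windows, and from the 5 other lists those with a PPARα start peak plus up to 4 by PML/RARA q. Counting was done in Python 3.11.15 with pandas 2.3.3 and tested on simulated data. Alternatives were stricter, shortened and differently windowed counts.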

Additional observations from a re-analysis of the deposited data

How the results depend on the processing

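No paired analysis was possible because each antibody has 1 list and no replicate. Of 36 counts under the alternatives, 21 stayed within 1.5 times the main count and 15 did not. The 15 include overlap counts that changed together with the number of PPARα peaks, while all of those peaks still overlapped. With −log10 q of at least 5 the 8 PPARα peaks came to 3, all overlapping PML/RARA, and PPARα start peaks to 1 gene, beside 24.1% of all genes. With fold of at least 5, and likewise with 5 kb on each side, there were 5 PPARα peaks, all 5 overlapping. With 50 kb on each side there were 19 PPARα peaks, all 19 overlapping, in 7 of the 9 windows, beside 65.1% of all genes, and 114 PML/RARA peaks. Summits within 200 bases left 3 overlaps. When at least 50% of the PPARα peak had to be overlapped, 7 of the 8 remained. A PML/RARA list cut to the PPARα length left 14 peaks in 5 windows, beside 47.9% of all genes, and 3 genes with a start peak, beside 30.4%. With that shorter list 6 of the 8 PPARα peaks overlapped PML/RARA. Both annotated ends for every gene, chosen after seeing the data, gave the same 2 and 7 marked genes in number. Small counts and unknown depth limit all of these values, and the cause of each move was not tested.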
